A study of Homo sapiens with 6 samples.

Results

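Sorting nexins, retromer and commander form the machinery that sends membrane proteins out of endosomes, back to the cell surface or the Golgi, before they reach the lysosome. Sorting nexins carry a PX domain that binds phosphoinositide lipids, and many add a BAR domain that senses or shapes curved membrane. Retromer, a trimer built on VPS35, and retriever, its relative built on VPS35L, hold cargo through adaptors such as SNX3, SNX27 and SNX17. Retriever works within commander, a larger assembly that also holds the COMMD proteins, CCDC22 and CCDC93, and SNX17 brings integrins and lipoprotein receptors to it.

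The set described here held 43 genes of these families, listed by symbol and found by gene identifier among the 57905 identifiers of the deposited table. It comprised 25 sorting nexins, 4 retromer subunits, the retriever subunits VPS35L and VPS26C, 9 COMMD genes, CCDC22, CCDC93 and the WASH complex subunit WASHC5. The set was chosen by family name with the log2 fold change of miR-19a over miR-NC in view, since SNX17 had been selected on its large fall in these samples. Its change is given as a description with no test. The calls of the other members come from the same contrast and are likewise a description of size against the spread between libraries. Of the 43 genes, 41 had a mean of at least 1 FPKM (fragments scaled to transcript length and library size) over the 6 libraries and entered the fit, which covered 12452 genes. SNX15 and SNX16 lay under this limit.

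RNA was taken from A549, an established human lung adenocarcinoma line, after transfection at 25 nM. A group of 3 samples received miR-19a, and a group of 3 received miR-NC, a negative control microRNA, with harvest given as 24 h. Only this line was used, and no label states that replicates were grown as separate cultures. The p-values therefore rest on the scatter of these samples, which may be technical. The libraries were made from poly(A) RNA, which does not report mature microRNA, so the level of miR-19a itself was not checked. Total counts were 16323470, 17196591 and 17957932 in the miR-19a libraries, against 16652353, 16127606 and 15699037 in the miR-NC libraries. Of 8 genes listed as A549 epithelial markers 7 were expressed, with EPCAM under the limit. The list summed to 4168.1 to 4196.9 FPKM with miR-19a and 3939.9 to 3985.6 FPKM with miR-NC. Its largest part was ALDH1A1, an aldehyde dehydrogenase, at means of 2194.7 FPKM with miR-19a and 2173.2 FPKM with miR-NC. Within the list KRT8, KRT18, KRT19 and CLDN1 were higher with miR-19a, whereas KRT7 (log2 fold change -0.28) and CDH1 (-0.17) were lower. Of 6 lung fibroblast markers, COL1A1 alone passed the limit, and the list summed to 2.49 to 3.0 FPKM with miR-19a against 0.89 to 1.07 FPKM with miR-NC. Of 6 leukocyte and endothelial markers, CD14 alone passed, PECAM1 matched no identifier, CD3E was at 0 in every library, and the sums were 1.42 to 1.8 FPKM with miR-19a and 0.8 to 1.27 FPKM with miR-NC. COL1A2, COL3A1, DCN, LUM and PDGFRB had at most 10 counts in any library. The part of COL1A1 and CD14 in the results was not tested.

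The microRNA and its matches in the members are shown before the values. The choice of genes did not use the matches directly, but SNX17 was selected on its fall. Among all fitted genes 48.4% of those with an 8mer were lower, against 21.4% of those with no match. The match of SNX17 is therefore not independent of its selection. The labels name miR-19a without an arm, and the 3p arm was used here. Its mature sequence is given from RefSeq (GRCh38.p14, chr13:91350939-91350961, plus strand), with the seed, bases 2 to 8, in capitals.
hsa-miR-19a-3p: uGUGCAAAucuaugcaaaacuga
A messenger RNA pairs with this seed through TTTGCACA (8mer), TTTGCAC (7mer-m8), TTGCACA (7mer-A1) or TTGCAC (6mer), read 5′ to 3′ on the sense strand. The 8mer includes the other 3, and each match was counted once, in its strongest class. In the 3′ UTR of the transcript with the longest coding sequence (GENCODE v29, GRCh38), 6 members held an 8mer. They are shown as stretches of 30 bases with the match in capitals.
SNX17: tgccaaattagcatttagtatTTTGCACAa
SNX3: aaagttactggcttggtcttaTTTGCACAg
VPS35L: agaagcagtctctgtgttgtcTTTGCACAa
SNX1: ttcttaatcatttgagaataaTTTGCACAg
VPS26C: cctcaaaataagccatgctgcTTTGCACAc
CCDC93: gcaaacataccaggtggcaggTTTGCACAg
A 7mer-m8 was the strongest match in 5 members. These are shown because their levels moved in different directions.
SNX5: tctcatttatctttatatactcTTTGCACc
SNX27: ctggaactatgaacttcatccaTTTGCACt
VPS35: catcacaattatgattttttttTTTGCACc
SNX9: gtgaggaccagtgctttctctcTTTGCACt
SNX29: acacggaatggtggatcgtacaTTTGCACc
The SNX1 match is at chr15:64139532-64139539 on the plus strand and that of CCDC93 at chr2:117919018-117919025 on the minus strand. The 7mer-m8 matches of SNX27, SNX9 and SNX29 are at chr1:151694766-151694772, chr6:157943581-157943587 and chr16:12573737-12573743 on the plus strand, and that of VPS35 is at chr16:46659706-46659712 on the minus strand. Each printed match lies in the last exon of its transcript. SNX33 held 2 matches of the 7mer-A1 class, SNX2 and COMMD8 held a 6mer only, and the other 29 members held none. Of the 41 members in the fit, 12 (29.3%) had a 7mer or 8mer, against 1969 (18.7%) of the 10552 fitted genes with an annotated 3′ UTR. With SNX17 set aside, 11 of the other 40 fitted members had such a match. No significance is attached to the difference from all fitted genes.

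Over the whole set, levels moved both ways. SNX17 set aside, 17 of the other 40 fitted members were called higher and 4 lower with miR-19a, by edgeR's quasi-likelihood test at an adjusted p under 0.05. Among all 12452 genes 48.4% were called, 24.9% higher and 23.5% lower, and nothing is read from the members' count. The members' median log2 fold change was 0.10, whereas the median of all fitted genes was 0.00. The 3 miR-19a libraries lay wholly above or wholly below the 3 miR-NC libraries for 23 of these 40 members, against 54.0% of all fitted genes. COMMD2, at 0.54, had the largest rise of the set, and SNX17, at -1.36, the largest fall. Besides SNX17, SNX5 and COMMD2 were the members called with a log2 fold change of at least 0.5 in size, which 11.7% of all fitted genes were.

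**Figure D1:**
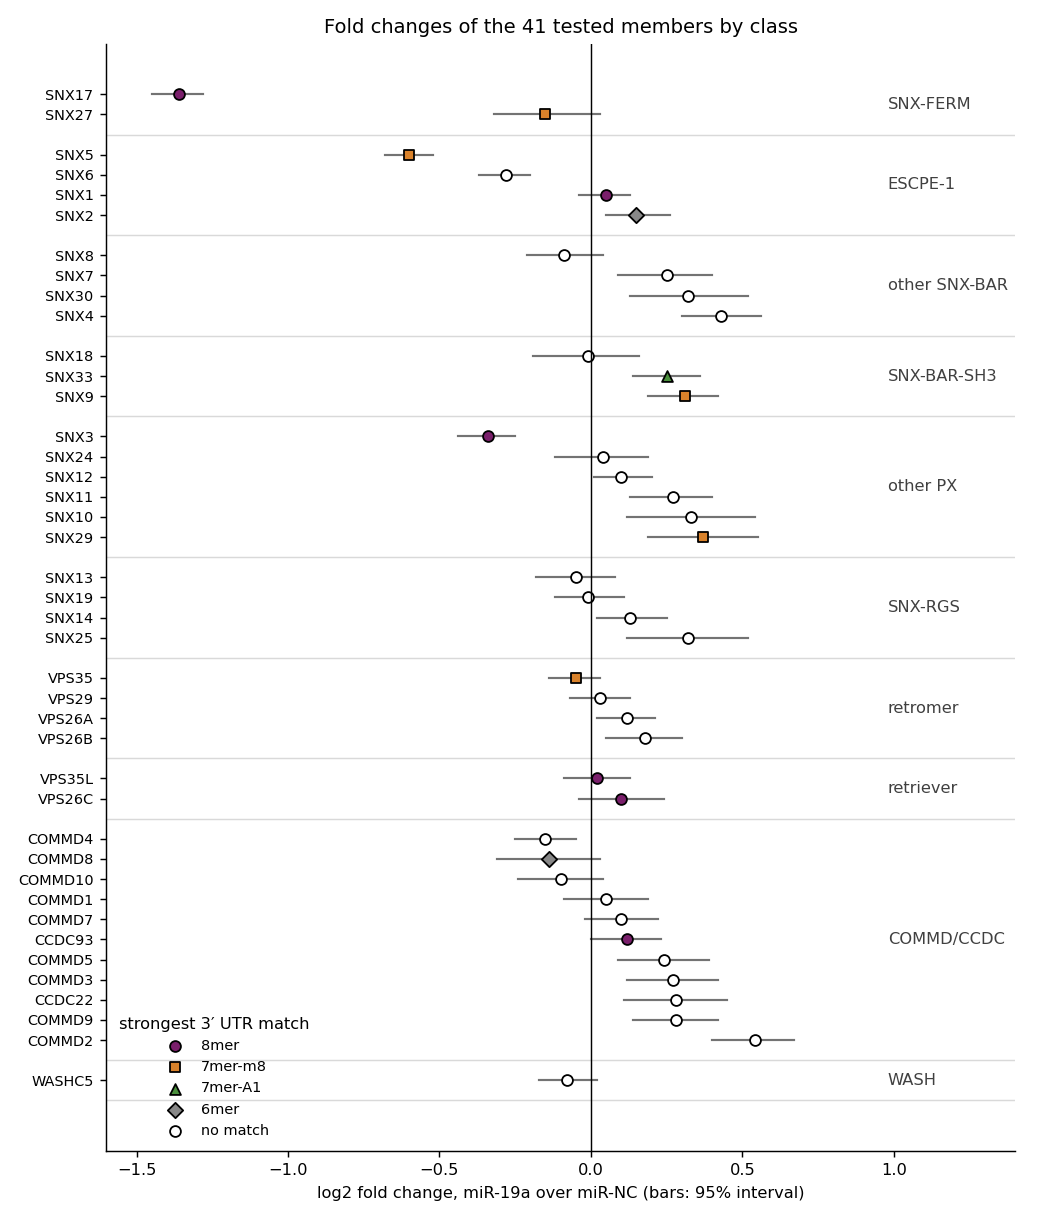
Log2 fold change (miR-19a over miR-NC) of the 41 fitted members by class, with 95% intervals from the edgeR fit; symbols give the strongest miR-19a match in the 3′ UTR. SNX17 stands at -1.36, and the other 40 members lie between -0.60 and 0.54.

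SNX17 and SNX27 are the sorting nexins of the set with a FERM domain, which reads short sorting signals in the tails of cargo proteins. SNX17 is the cargo adaptor of retriever and commander. Its normalised level was 72.0, 74.6 and 78.0 CPM (counts scaled to library size) in the miR-19a libraries, against 194.6, 196.6 and 187.6 CPM in the miR-NC libraries. The groups were far apart relative to their spread, with means of 74.9 ± 2.99 and 192.9 ± 4.71 CPM (SD, n = 3 each). The log2 fold change was -1.36 (SE 0.044, 95% interval -1.45 to -1.28), a level 0.388 times that of the control. The interval describes the spread between libraries and makes no allowance for the selection of SNX17 on this fall. Among all fitted genes it ranked 44 of 12452 from the largest fall, and among the 639 fitted genes with an 8mer it ranked 7. In bulk RNA, fewer transcripts per cell and fewer cells with the transcript cannot be told apart.

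The SNX17 gene (ENSG00000115234) lies on the plus strand of chromosome 2, from 27370496 to 27377533. Its 8mer, printed above, is at chr2:27376957-27376964 in exon 15 of 15, wholly within the 3′ UTR. It begins 237 bases after the stop codon in a 3′ UTR of 409 bases, the shortest among the 12 members with a 7mer or 8mer. An annotated transcript with a longer 3′ UTR of 814 bases holds the same match. Exons of ZNF513, a zinc finger gene on the opposite strand, share 303 bases (8.0%) with the exons of SNX17, and ZNF513 did not pass, at 0.13. No source used here states whether counting used strand.

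SNX27 adds a PDZ domain to the FERM domain and links retromer to receptors and transporters such as GLUT1. It had 23.2, 22.7 and 21.5 CPM with miR-19a, against 21.4, 30.7 and 22.4 CPM with miR-NC. The groups overlapped, and miR-NC replicate 2 stood above the other 5 libraries. The log2 fold change of -0.15 (SE 0.086, 95% interval -0.32 to 0.03) did not pass, at an adjusted p of 0.162. Leaving out miR-NC replicate 2 gave 0.03 (adjusted p = 0.782), whereas leaving out miR-NC replicate 1 gave -0.25, which passed (adjusted p = 0.0262). Its 7mer-m8 lies 348 bases after the stop codon in a 3′ UTR of 4657 bases.

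**Figure D2:**
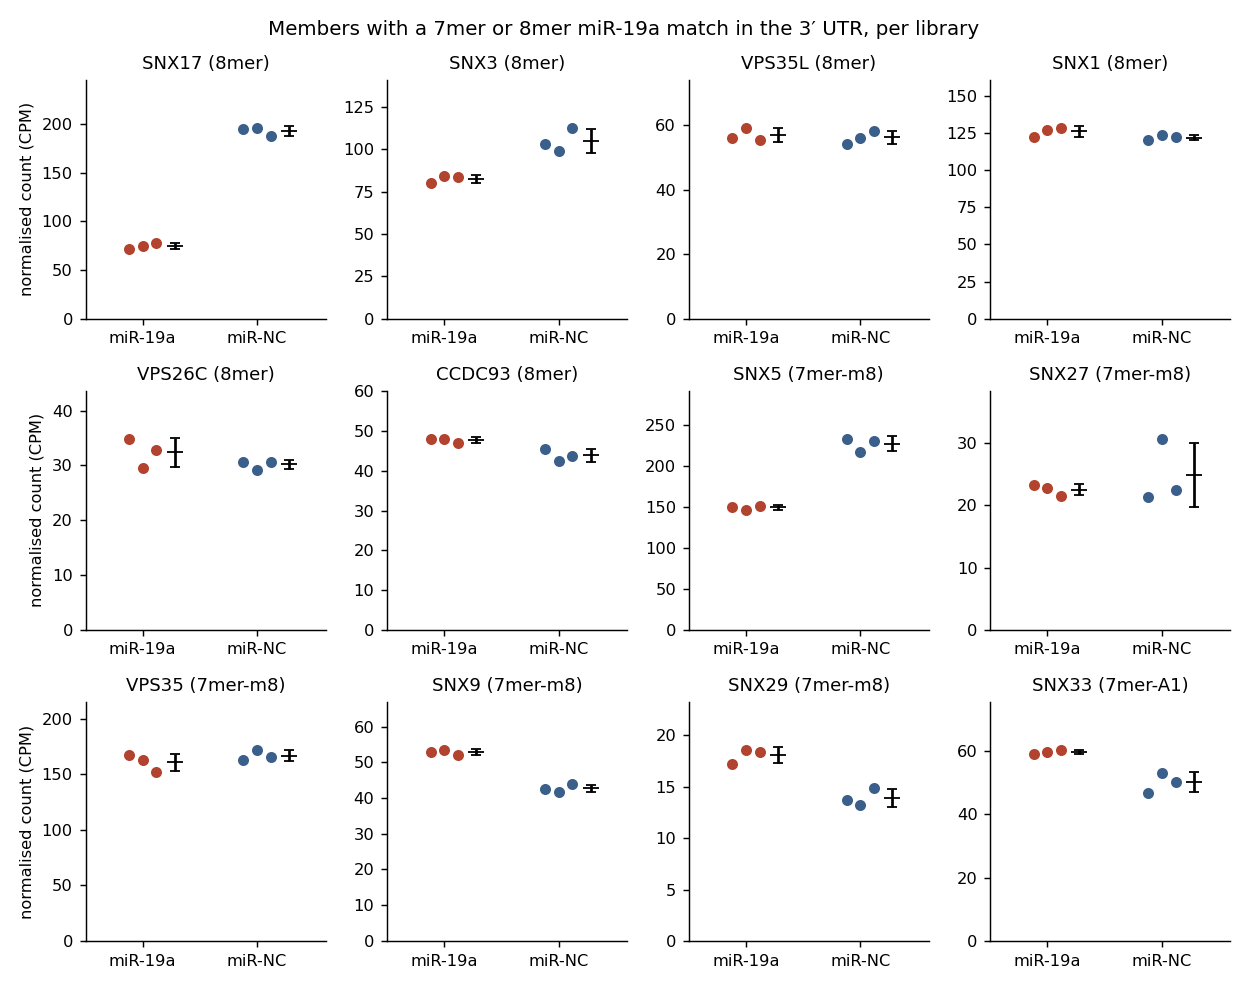
Normalised counts (CPM, linear axes from 0) in each library for the 12 members with a 7mer or 8mer, with the mean and SD beside the 3 libraries of each group. SNX17, SNX3 and SNX5 are lower in every miR-19a library, SNX9, SNX29, SNX33 and CCDC93 are higher in every one, and SNX27 has a single high miR-NC library.

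The ESCPE-1 coat pairs SNX1 or SNX2 with SNX5 or SNX6 and forms tubules that carry cargo such as the mannose 6-phosphate receptor to the Golgi. Its cargo-binding subunits SNX5 and SNX6 were both lower with miR-19a, and SNX2 was higher. SNX5 had 150.4, 146.6 and 151.4 CPM with miR-19a and 233.5, 216.7 and 231.1 CPM with miR-NC. The groups did not overlap, and the log2 fold change was -0.60 (SE 0.040). Its 7mer-m8 lies at chr20:17941821-17941827, 529 bases after the stop codon in a 3′ UTR of 760 bases, on the minus strand. Its fall ranked 46 among the 780 fitted genes whose strongest match was a 7mer-m8. SNX6 fell by 0.28 (SE 0.044), with means of 127.8 ± 7.30 CPM with miR-19a against 155.6 ± 8.61 CPM with miR-NC (SD, n = 3 each), with no match in its 3′ UTR.

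SNX1, a curvature-sensing partner of SNX5 and SNX6, had 122.2, 127.2 and 128.7 CPM with miR-19a and 120.5, 123.4 and 122.0 CPM with miR-NC. The groups overlapped, its 3′ UTR holds an 8mer and a 7mer-A1, and the log2 fold change of 0.05 (95% interval -0.04 to 0.13) did not pass. Its 8mer begins 1334 bases after the stop codon. SNX2, the close relative of SNX1, had 68.1, 72.6 and 68.7 CPM with miR-19a and 63.9, 60.3 and 64.0 CPM with miR-NC. It rose by 0.15 (SE 0.052, adjusted p = 0.0114), a call lost on leaving out miR-19a replicate 2 (0.12, adjusted p = 0.0893) or miR-NC replicate 2 (0.13, adjusted p = 0.0578). Summed per length, SNX5 and SNX6 had 49.4 ± 1.51 FPKM with miR-19a and 66.5 ± 3.28 FPKM with miR-NC. The corresponding sums of SNX1 and SNX2 were 28.9 ± 0.800 and 27.1 ± 0.458 FPKM (SD, n = 3 each).

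Among the other BAR-domain nexins, 3 of 4 were called higher, as were 24.9% of all fitted genes. SNX4, which forms dimers with SNX7 or SNX30 and recycles receptors and SNAREs to the surface, had 40.5, 46.4 and 40.4 CPM with miR-19a against 31.7, 31.7 and 31.2 CPM with miR-NC. Every miR-19a library lay above every miR-NC library, and the log2 fold change was 0.43 (SE 0.065). Its partners moved the same way, SNX7 at 0.25 (SE 0.076) and SNX30 at 0.32 (SE 0.10). The SNX7 call was lost on leaving out miR-19a replicate 2 (0.19, adjusted p = 0.0606) or miR-NC replicate 1 (0.18, adjusted p = 0.0823). That of SNX30 was lost on leaving out miR-19a replicate 2 (0.25, adjusted p = 0.0751) or miR-NC replicate 3 (0.25, adjusted p = 0.0522). The SNX30 call was also lost with limma on log2(FPKM + 1) (0.17, adjusted p = 0.154) or log2(FPKM + 0.1) (0.29, adjusted p = 0.172). SNX30 means of 1.34 FPKM with miR-19a and 1.08 FPKM with miR-NC lay just above the limit of 1. SNX8, a BAR nexin of endosome-to-Golgi traffic, had 34.1, 34.0 and 33.9 CPM with miR-19a and 35.1, 37.1 and 36.1 CPM with miR-NC. These groups did not overlap, but the log2 fold change of -0.09 (SE 0.064) did not pass (adjusted p = 0.281).

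SNX9, SNX18 and SNX33 join an SH3 domain to the BAR domain and act in endocytosis and actin assembly at the plasma membrane. SNX9 had 53.0, 53.5 and 52.0 CPM with miR-19a, against 42.4, 41.8 and 43.8 CPM with miR-NC. It rose by 0.31 (SE 0.058) with a 7mer-m8 in its 3′ UTR. SNX33 also rose, by 0.25 (SE 0.056), with 58.9, 59.5 and 60.3 CPM with miR-19a and 46.8, 53.1 and 50.2 CPM with miR-NC. Its exons share 10.0% of their bases with IMP3, a gene of ribosome assembly on the opposite strand whose log2 fold change was 0.00. SNX18 had 21.6, 18.4 and 18.7 CPM with miR-19a and 20.8, 21.0 and 17.4 CPM with miR-NC, groups that overlapped, and a log2 fold change of -0.01 (95% interval -0.19 to 0.16). SNX18 has many pseudogenes, of which SNX18P3 reached 1.72 FPKM with miR-19a and 1.68 FPKM with miR-NC, beside 2.90 and 2.95 FPKM for SNX18 itself, so its reads are uncertain. Annotated 3′ UTRs of SNX18 differ: the longest holds an 8mer, and the shorter form used here holds none.

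In the nexins with a PX domain and no BAR, FERM or RGS domain, SNX3 fell and SNX10, SNX11 and SNX29 rose. SNX3, the adaptor through which retromer returns the Wnt carrier WLS to the Golgi, had 79.9, 84.4 and 83.8 CPM with miR-19a and 103.1, 99.1 and 112.9 CPM with miR-NC. The groups did not overlap, and the log2 fold change was -0.34 (SE 0.048). Its 8mer lies at chr6:108211829-108211836 on the minus strand, 312 bases after the stop codon in a 3′ UTR of 927 bases. The fall ranked 198 among the 639 fitted genes with an 8mer. SNX12, the closest relative of SNX3, has no match and did not pass at 0.10 (SE 0.047, adjusted p = 0.0643), with a call gained without miR-NC replicate 2 (0.12, adjusted p = 0.0433).

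SNX29 had 17.2, 18.6 and 18.4 CPM with miR-19a, against 13.7, 13.2 and 14.9 CPM with miR-NC, a rise of 0.37 (SE 0.091). The groups did not overlap, and the 3′ UTR holds a 7mer-m8, which lies 5107 bases after the stop codon. The SNX29 call was lost with limma on log2(FPKM + 1) (0.21, adjusted p = 0.0502) or log2(FPKM + 0.1) (0.33, adjusted p = 0.0581). Its means of 1.57 FPKM with miR-19a and 1.23 FPKM with miR-NC lay just above the limit of 1. SNX10, known for its part in osteoclast vesicle traffic, rose by 0.33 (SE 0.10), a call lost on leaving out miR-NC replicate 1 (0.26, adjusted p = 0.0591). SNX11 rose by 0.27 (SE 0.067), and SNX24 did not pass at 0.04 (SE 0.078), or -0.06 (adjusted p = 0.626) without miR-19a replicate 1. SNX16, an early endosome protein, had 0.900 FPKM with miR-19a and 0.830 FPKM with miR-NC, just under the limit of 1. SNX15, which joins a MIT domain to the PX domain, had 0.190 and 0.243 FPKM. Exons of the read-through gene ARL2-SNX15 cover 39.4% of the exon bases of SNX15, so its count is uncertain.

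The RGS-domain nexins SNX13, SNX14, SNX19 and SNX25 sit on the endoplasmic reticulum or endosomes and act at membrane contacts with lipid droplets or lysosomes. SNX25 had 17.2, 15.5 and 13.8 CPM with miR-19a, against 13.3, 11.1 and 12.7 CPM with miR-NC. It rose by 0.32 (SE 0.10, adjusted p = 0.00587), and the call was lost on leaving out miR-19a replicate 1 (0.24, adjusted p = 0.0771) or miR-NC replicate 2 (0.25, adjusted p = 0.0507). Limma on log2(FPKM + 1) (0.23, adjusted p = 0.0568) or log2(FPKM + 0.1) (0.30, adjusted p = 0.056) also lost it. SNX13 had 34.3, 38.0 and 32.1 CPM with miR-19a and 36.4, 35.7 and 36.1 CPM with miR-NC. These groups overlapped (log2 fold change -0.05, adjusted p = 0.545, or 0.00 without miR-19a replicate 3). The longest annotated 3′ UTR of SNX13 holds a 7mer-m8, and the shorter form used here holds no match. SNX14, whose loss causes a cerebellar ataxia in people, lay at the threshold with 0.13 (SE 0.058, adjusted p = 0.0502). It passed on leaving out miR-19a replicate 3 (0.17, adjusted p = 0.0236) or miR-NC replicate 3 (0.16, adjusted p = 0.0312). SNX19 did not pass at -0.01 (95% interval -0.12 to 0.11).

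Retromer itself moved little. VPS35, its scaffold, had 167.0, 162.6 and 152.3 CPM with miR-19a and 162.7, 172.0 and 165.7 CPM with miR-NC. The groups overlapped, and the log2 fold change of -0.05 (95% interval -0.14 to 0.03) did not pass, with a 7mer-m8 759 bases after the stop codon in a 3′ UTR of 4340 bases. VPS29, shared by retromer and retriever, stood at 0.03 (95% interval -0.07 to 0.13) and did not pass. VPS26A and VPS26B are alternative arms that bind adaptors such as SNX3 and SNX27. VPS26B had 40.0, 40.2 and 42.6 CPM with miR-19a and 34.7, 38.2 and 35.8 CPM with miR-NC, a rise of 0.18 (SE 0.063, adjusted p = 0.015). That call was lost on leaving out miR-19a replicate 3 (0.15, adjusted p = 0.0735) or miR-NC replicate 1 (0.15, adjusted p = 0.0919). With limma on log2(FPKM + 1) it was also lost (0.14, adjusted p = 0.0505). VPS26A rose by 0.12 (SE 0.047, adjusted p = 0.0348). Its call was lost in 8 of 15 alternatives, among them the fits lacking miR-19a replicate 1 (0.12, adjusted p = 0.0825), miR-19a replicate 2 (0.07, adjusted p = 0.266), miR-NC replicate 1 (0.10, adjusted p = 0.141) and miR-NC replicate 3 (0.12, adjusted p = 0.0548).

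Neither retriever subunit that retromer lacks passed, and both hold an 8mer. VPS35L, the scaffold, had 56.0, 59.3 and 55.5 CPM with miR-19a and 54.3, 56.2 and 58.3 CPM with miR-NC. The groups overlapped, and the log2 fold change was 0.02 (95% interval -0.09 to 0.13). Its 8mer, at chr16:19700707-19700714 on the plus strand, begins 230 bases after the stop codon in a 3′ UTR of 687 bases, close to the distance in SNX17. An annotated VPS35L transcript with a longer 3′ UTR of 1492 bases holds a different 8mer, which begins 1414 bases after the stop codon. Exons of KNOP1 on the opposite strand share 17.2% of the exon bases of VPS35L, and KNOP1 did not pass at -0.13. VPS26C had 34.9, 29.6 and 32.8 CPM with miR-19a and 30.7, 29.2 and 30.7 CPM with miR-NC, groups that overlapped, with a log2 fold change of 0.10 (95% interval -0.04 to 0.24). Its 8mer, at chr21:37223887-37223894 on the minus strand, begins 1649 bases after the stop codon.

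**Figure D3:**
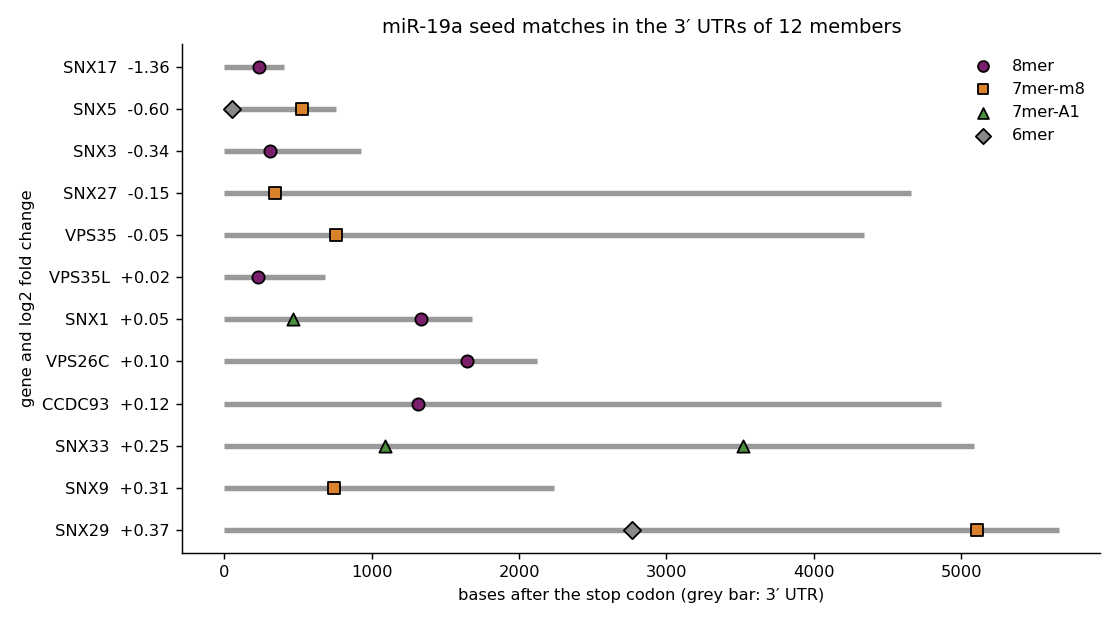
Positions of miR-19a matches along the 3′ UTRs of the 12 members with a 7mer or 8mer, in bases after the stop codon, ordered by log2 fold change (given beside each symbol). Each 3′ UTR is that of the transcript with the longest coding sequence. SNX17 has the shortest 3′ UTR at 409 bases, and VPS35L in this transcript has its 8mer at a like distance, 230 bases, with a log2 fold change of 0.02.

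In the COMMD and CCDC subunits of commander, which link retriever to the actin machinery, 5 of 11 members rose and 1 fell, where 24.9% of all fitted genes were called higher and 23.5% lower. The calls of COMMD5 and CCDC22, among the 5, were lost in some alternatives. COMMD2 had 49.5, 50.6 and 40.6 CPM with miR-19a, against 30.4, 33.5 and 33.1 CPM with miR-NC. Every miR-19a library was above every miR-NC library, and the log2 fold change was 0.54 (SE 0.068). COMMD9 rose by 0.28 (SE 0.069), COMMD3 by 0.27 (SE 0.075) and COMMD5 by 0.24 (SE 0.074). The COMMD5 call was lost on leaving out miR-NC replicate 2 (0.13, adjusted p = 0.15). Limma on log2(FPKM + 1) (0.21, adjusted p = 0.0839) or log2(FPKM + 0.1) (0.23, adjusted p = 0.0857) also lost it. Exons of the read-through gene COMMD3-BMI1 share 27.3% of the exon bases of COMMD3, and those of ZNF7, on the opposite strand, 13.3% of COMMD5, so both counts carry that uncertainty.

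COMMD4 had 88.0, 78.2 and 88.5 CPM with miR-19a and 97.8, 86.3 and 98.8 CPM with miR-NC. It fell by 0.15 (SE 0.051, adjusted p = 0.0105) while the groups overlapped. The call was lost on leaving out miR-19a replicate 2 (-0.10, adjusted p = 0.155), miR-NC replicate 1 (-0.12, adjusted p = 0.0804) or miR-NC replicate 3 (-0.12, adjusted p = 0.0833). Limma on log2(FPKM + 1) (-0.16, adjusted p = 0.0979) or log2(FPKM + 0.1) (-0.17, adjusted p = 0.0994) also lost it. CCDC22 and CCDC93 are the coiled-coil subunits that hold the COMMD ring. CCDC22 rose by 0.28 (SE 0.086, adjusted p = 0.00517) while its groups overlapped. Its call was lost on leaving out miR-19a replicate 1 (0.21, adjusted p = 0.0789) or miR-NC replicate 3 (0.20, adjusted p = 0.0671). Limma on log2(FPKM + 1) (0.24, adjusted p = 0.065) or log2(FPKM + 0.1) (0.27, adjusted p = 0.0653) also lost it. CCDC93 had 48.1, 48.1 and 46.9 CPM with miR-19a and 45.5, 42.4 and 43.8 CPM with miR-NC. Its groups did not overlap, and the log2 fold change of 0.12 (SE 0.058) did not pass (adjusted p = 0.09), with an 8mer 1317 bases into a 3′ UTR of 4865 bases.

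COMMD1, known for copper transport and control of NF-kB, stood at 0.05 (95% interval -0.09 to 0.19) and did not pass. Also not past the threshold were COMMD7 at 0.10, COMMD10 at -0.10 and COMMD8, which holds a 6mer, at -0.14 (SE 0.087). On the same strand, exons of the pseudogene RPSAP26, at 0.0 FPKM in both groups, share 31.0% of the exon bases of COMMD1. Those of FO393400.1, for which no level was available, share 27.2% of COMMD7, so the counts of COMMD1 and COMMD7 are also uncertain. WASHC5, also called strumpellin, belongs to the WASH complex that builds branched actin on endosomes. It had 80.8, 84.8 and 89.3 CPM with miR-19a and 87.1, 89.0 and 92.8 CPM with miR-NC, groups that overlapped, and its log2 fold change of -0.08 (SE 0.048) did not pass (adjusted p = 0.198).

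Calls were also counted by the strongest match, with SNX17 set aside because it was selected on its fall. Of the 5 other members with an 8mer, 1, SNX3, was lower, and the remaining 4 did not pass, with log2 fold changes of 0.02 to 0.12. The median of these 5 was 0.05. Among all 639 fitted genes with an 8mer, 48.4% were lower and 15.5% higher, with a median of -0.15. Of the 5 whose strongest match was a 7mer-m8, SNX5 was lower, SNX9 and SNX29 were higher, and SNX27 and VPS35 did not pass. In that class 37.2% of 780 genes were lower and 23.7% higher. SNX33, whose matches are 7mer-A1, was higher, in a class of 550 genes with 32.7% lower and 26.2% higher. Of the 29 fitted members with a 6mer or no match, 14 were higher and 2, SNX6 and COMMD4, were lower, with a median of 0.12. Among genes with no match 21.4% were lower and 29.6% higher, and among those with a 6mer only 23.8% and 29.1%.

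Per length, SNX17 was among the most abundant members in the control cells. Its level was 21.19, 21.98 and 22.96 FPKM with miR-19a, against 57.9, 58.25 and 56.09 FPKM with miR-NC. It ranked 6 of 43 in each miR-19a library, whereas in miR-NC libraries it ranked 1, 1 and 2, exchanging places with SNX3. SNX3 averaged 44.3 FPKM with miR-19a and 56.9 FPKM with miR-NC. SNX17 made up 4.29 ± 0.225% of the summed FPKM of the members with miR-19a and 10.4 ± 0.422% with miR-NC. The ratio of SNX17 to the retriever scaffold VPS35L was 3.83 ± 0.229 with miR-19a and 9.99 ± 0.552 with miR-NC, on the FPKM scale. The ratio of SNX5 to SNX6 was 0.610 ± 0.0444 with miR-19a and 0.759 ± 0.0287 with miR-NC. That of VPS26A to VPS26B was 4.35 ± 0.359 and 4.53 ± 0.139, a difference smaller than the SD of the miR-19a libraries.

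**Figure D4:**
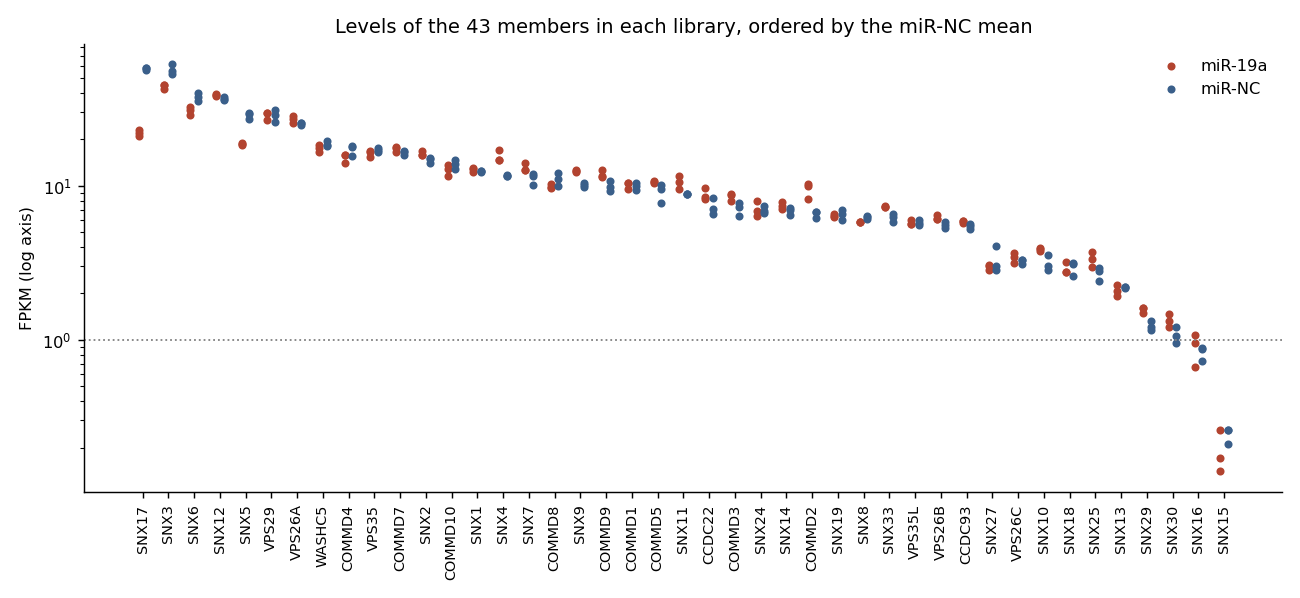
FPKM of the 43 members in each library on a log axis, miR-19a to the left of miR-NC within each gene, ordered by the miR-NC mean; the dotted line marks 1 FPKM. SNX17 ranks 6 in the miR-19a libraries and 1 or 2 in the miR-NC libraries, SNX16 has points on both sides of the line, and SNX15 lies under it.

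Partner genes outside the 43 were taken from lists of the same pathways. Of 12 further sorting nexins and complex subunits, 7 were fitted and 0 passed edgeR's test in either direction, with a median of -0.09. At an unadjusted p under 0.05 edgeR had 1 and DESeq2 0, and DESeq2 also called 0. Without miR-19a replicate 1 or 3, or miR-NC replicate 2 or 3, 1 was higher, and without miR-NC replicate 2, 1 was lower. They included DENND10 and COMMD6, which complete commander, and WASHC1, WASHC2C, WASHC3 and WASHC4 of the WASH complex. WASHC1 and WASHC2C have near-identical copies, so their reads are uncertain. Of 15 cargo proteins of SNX17, retriever and commander, 7 were higher and 2 lower, with a median of 0.13. ITGA5, the alpha chain of the fibronectin receptor, averaged 280.7 ± 3.38 CPM with miR-19a and 134.4 ± 9.12 CPM with miR-NC, a rise of 1.06 (SE 0.042). ITGAV, a vitronectin receptor chain, rose by 0.79 (SE 0.038). The growth factor receptor EGFR, which holds a 6mer only, fell by 0.40 (SE 0.037). NOTCH2, which holds a 7mer-m8, was called higher at 0.13. The longest annotated 3′ UTR of NOTCH2 holds a 6mer only. The lipoprotein receptor LRP8, which holds a 7mer-A1, fell by 0.15 (SE 0.054, adjusted p = 0.0212). The LRP8 call was lost on leaving out miR-19a replicate 1 (-0.14, adjusted p = 0.075), miR-19a replicate 2 (-0.10, adjusted p = 0.172), miR-NC replicate 1 (-0.14, adjusted p = 0.0561) or miR-NC replicate 3 (-0.14, adjusted p = 0.0588). It was also lost with no filter, with DESeq2 and with either limma fit. These are levels of messenger RNA and say nothing of where the proteins were.

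Of 13 fitted cargo genes of retromer and SNX27, 6 were higher and 3 lower, with a median of 0.10. The Golgi sorting receptor SORT1 rose by 0.80 (SE 0.065), the transferrin receptor TFRC by 0.39 (SE 0.037). STEAP2, a metalloreductase with an 8mer, fell by 0.72 (SE 0.080), and TGFBR2, a TGF-beta receptor with a 7mer-m8, fell by 0.21 (SE 0.042). Genes of this list with a match went both ways. SEMA4C, with an 8mer, was also lower (-0.25). IGF2R with an 8mer (0.21), SLC2A1 with a 7mer-m8 (0.10) and SLC11A2 with 7mer-A1 matches (0.43) were called higher. Of 19 fitted regulators and effectors of retromer, 4 were higher and 5 lower (median -0.04). RAB10, a GTPase of recycling, rose by 0.35 (SE 0.037) and the lipid phosphatase MTMR2 by 0.37 (SE 0.053). FKBP15, a WASH-associated protein with an 8mer, fell by 0.62 (SE 0.062). The early endosome GTPase RAB5C, with no match in its 3′ UTR, fell by 0.36 (SE 0.042).

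Of 12 subunits of Arp2/3, which nucleates branched actin, and of capping protein, 8 were higher and 1 lower (median 0.17). ACTR3 rose by 0.33 (SE 0.037) and ARPC4 by 0.30 (SE 0.046). ARPC1A, with no match in its 3′ UTR, fell by 0.37 (SE 0.044). The HOPS, CORVET, GARP and EARP tethers dock vesicles at endosomes, lysosomes and the Golgi. Of 16 genes listed with them, not all of them subunits, 5 were higher and 3 lower (median 0.05). The higher genes were 3 without miR-19a replicate 2, miR-NC replicate 1 or miR-NC replicate 2. VPS16 rose by 0.35 (SE 0.058) and VPS51 by 0.23 (SE 0.054). TGFBRAP1, a CORVET subunit with a 7mer-m8, fell by 0.82 (SE 0.059), and VPS41, a HOPS subunit with a 6mer only, by 0.30 (SE 0.062). Of the tether genes with an 8mer that passed, VPS39 was lower (-0.14) and VPS53 higher (0.18). The shares called in these lists stand beside 24.9% higher and 23.5% lower among all fitted genes, and no list was tested as a set.

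**Figure D5:**
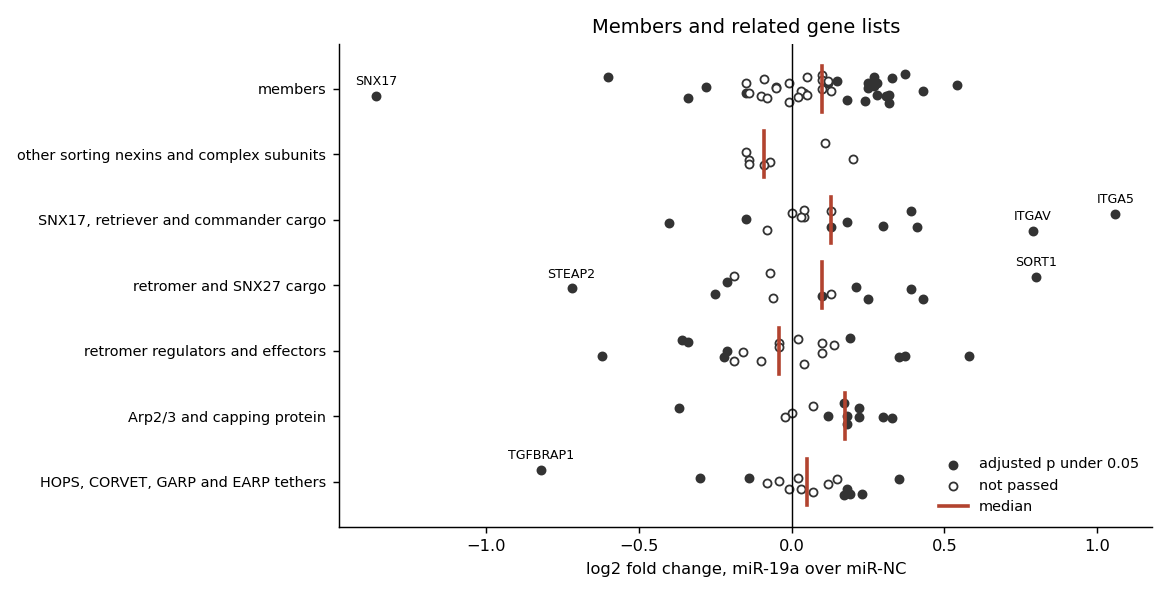
Log2 fold changes (miR-19a over miR-NC) of the 41 fitted members and of 6 related gene lists; filled points passed an adjusted p of 0.05, and red bars are medians. SNX17 at -1.36 is the lowest point, followed by TGFBRAP1 at -0.82, and ITGA5 at 1.06 is the highest.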

How the data were processed

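Poly(A) RNA of the 6 samples was read in pairs of 150 nt (labels' protocols). Per the submitters' processing notes, demultiplexing used bcl2fastq 2.17.1.14. No source used here names the aligner, counter, annotation, strand setting or build. For 57905 identifiers the deposited table holds the authors' raw count and, per the file headers, their FPKM in every sample. Identifiers were paired with symbols through a gene name table and GENCODE v29. Counts of the 12452 genes averaging 1 FPKM or more were fitted with edgeR 4.0.16 (R 4.3.3): TMM factors, quasi-likelihood test, two-sided, Benjamini-Hochberg adjustment over all fitted genes. CPM are TMM-scaled. The SE was taken as the size of the log2 fold change divided by the root of the F statistic, and intervals use the fit's total degrees of freedom.

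The members, the lists and the rule for named genes were chosen with earlier results of these data known. Named with values in every sample were SNX17, members with a 7mer or 8mer, called members changed by at least 0.5 on the log2 scale, and the largest rise and fall of each class. From each list at most 2 higher and 2 lower genes with the smallest adjusted p were named. Other called genes of the lists with a 7mer or 8mer were named with their log2 fold change alone. The fit was tested on simulated counts, and the search for matches on planted sequences. Coordinates are those of GENCODE v29 on GRCh38, not of the deposited table. Python 3.11.15 was used. Alternatives were DESeq2 1.42.0, limma 3.58.1 on log2(FPKM + 1) or log2(FPKM + 0.1), other scaling factors, other gene filters, a replicate block, each library left out in turn and the longest 3′ UTR.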

Additional observations from a re-analysis of the deposited data

How the results depend on the processing

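SNX17 stayed between -1.40 and -1.34 over 15 alternatives. SNX3, SNX5, SNX6, SNX4, SNX9, SNX11, SNX33, COMMD2, COMMD3 and COMMD9 also kept their calls and directions in every alternative that fitted them, so 10 of the 21 calls other than SNX17 (7 higher, 3 lower) did. Of 607 member values under alternatives, 550 kept their direction and side of the threshold. Members called higher numbered 10 with limma on log2(FPKM + 1) and 11 with log2(FPKM + 0.1), against 17, and the median of the members was 0.08 with either, against 0.10. For these the cause was not tested. Without single libraries 13 to 17 members were higher and 4 or 5, SNX17 included, were lower. Members near 0 changed sign without single libraries, with ranges of -0.12 to 0.00 for SNX13, -0.10 to 0.03 for SNX18, -0.06 to 0.05 for SNX19, -0.06 to 0.11 for SNX24, -0.25 to 0.03 for SNX27, -0.04 to 0.09 for VPS29 and -0.01 to 0.04 for VPS35L. SNX19 stood at 0.00 with no filter. The lower SNX17, retriever and commander cargo genes were 1 with no filter, DESeq2 or either limma fit, and 1 to 2 without single libraries. The lower retromer and SNX27 cargo genes were 1 with a limit of 5 FPKM, under which STEAP2 and SEMA4C were not fitted. The higher tether genes were 3 with that limit, under which VPS33A and VPS53 were not fitted. With DESeq2 the higher tether genes were 3, with either limma fit 2, and without single libraries 3 to 6. In the list of further subunits, 0 to 1 were higher and 0 to 1 lower without single libraries. Same-numbered libraries did not deviate together (correlations of -0.010, 0.012 and -0.045), so the numbers were not taken as pairs. With the replicate block 17 members were higher and 5, SNX17 included, lower, and SNX17 stood at -1.36. With the longest annotated 3′ UTR 14 members held a 7mer or 8mer, against 12, and 7 held an 8mer, against 6.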

Other observations

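Matches of 7 or 8 bases also occur in coding sequence. They were found in 9 of the 43 members (20.9%), all 9 of them among the 41 fitted. Among the 10552 fitted genes with a 3′ UTR they were found in 1526 (14.5%). Of these 9 members 4 were higher and 0 lower by edgeR's test (0 lower at an unadjusted p under 0.05 too), with a median log2 fold change of 0.12. Over the 1526 genes 331 were higher and 487 lower, with a median of -0.05.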
